A study of Mus musculus with 4 samples.

Results

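The circadian clock genes were examined in crypt epithelium of the mouse jejunum in which Yy1 was deleted; its product is a zinc finger factor that binds many promoters. The group holds 10 genes, taken with every probe set whose platform annotation names one of them and no other gene, which gave 23 of the 45037 probe sets that are not array controls. Yy1 knockout crypts (2 arrays) came from mice with floxed Yy1 alleles (YY1 f/f) and Vil-Cre-ERT2, a tamoxifen-dependent Cre recombinase under the villin promoter, which is active in intestinal epithelium, with tamoxifen for 4 days. Control crypts (2 arrays) are titled only as control. The entry of 4 days of tamoxifen is carried by all 4 samples, but the wording of the labels does not settle the genotype of the controls or whether they received tamoxifen. Effects of Cre-ERT2 or of tamoxifen therefore cannot be told apart from that of the deletion. All 4 samples carry the strain label C57BL/6J enriched and the label of a biological replicate, and crypts were freed with EDTA and filtered. The time of day at which mice were killed sets the level of most of these transcripts. Neither that time nor the age of the mice is stated in the labels. Any difference in that time between the groups cannot be told apart from an effect of the deletion.

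The mammalian clock is a loop of transcription and repression that runs in almost every cell. BMAL1 (gene Arntl) pairs with CLOCK and activates genes through E-boxes, among them Per1, Per2, Per3, Cry1 and Cry2, whose proteins return to the nucleus and repress BMAL1 and CLOCK. A side loop is formed by the nuclear receptors REV-ERB alpha and beta (Nr1d1 and Nr1d2), which repress Arntl through ROR elements, and Dbp is an output factor that activates genes through D-boxes. In the gut this clock is entrained largely by feeding, and transcripts of Arntl peak nearly opposite in the day to those of Dbp and the Per genes.

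Promoter windows of 250 bases before to 50 after a gene's start were taken from RefSeq (GRCm38.p6), which held 13 windows for 9 of the 10 members and was not used for Per2. Both strands were searched for the E-box CACGTG, the related CACGTT, the D-box TTATGNAA, the ROR element core TAGGTCA, the cAMP element TGACGTCA and the YY1 core AANATGGC. The 4 windows below are shown because they hold the clock elements of 2 members with falling probe sets, Per3 and Cry2, and of their paralogs Per1 and Cry1, which did not pass the test. Capitals mark the matched letters, on either strand, and each window is written 5′ to 3′ on the strand of its gene.
Per3, chr4:151044616-151044915, minus strand: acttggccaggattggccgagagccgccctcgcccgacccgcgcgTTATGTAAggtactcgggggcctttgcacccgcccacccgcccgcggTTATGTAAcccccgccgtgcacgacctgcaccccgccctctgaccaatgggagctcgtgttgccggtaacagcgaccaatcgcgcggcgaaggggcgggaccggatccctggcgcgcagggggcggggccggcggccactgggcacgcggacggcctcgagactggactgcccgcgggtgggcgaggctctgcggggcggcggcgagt
Cry2, chr2:92434020-92434319, minus strand: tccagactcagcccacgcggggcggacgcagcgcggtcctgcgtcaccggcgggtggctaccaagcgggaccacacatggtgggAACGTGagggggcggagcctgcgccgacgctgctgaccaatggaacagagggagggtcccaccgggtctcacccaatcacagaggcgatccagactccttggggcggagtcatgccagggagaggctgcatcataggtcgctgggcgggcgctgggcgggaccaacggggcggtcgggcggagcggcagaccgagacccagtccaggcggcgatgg
Per1, chr11:69098699-69098998, plus strand: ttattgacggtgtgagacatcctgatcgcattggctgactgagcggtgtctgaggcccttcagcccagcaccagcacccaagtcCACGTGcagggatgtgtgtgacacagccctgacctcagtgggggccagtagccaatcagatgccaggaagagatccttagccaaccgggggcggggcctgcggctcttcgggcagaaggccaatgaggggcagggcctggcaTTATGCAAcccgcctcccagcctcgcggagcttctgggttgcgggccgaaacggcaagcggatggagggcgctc
Cry1, chr10:85185005-85185304, minus strand: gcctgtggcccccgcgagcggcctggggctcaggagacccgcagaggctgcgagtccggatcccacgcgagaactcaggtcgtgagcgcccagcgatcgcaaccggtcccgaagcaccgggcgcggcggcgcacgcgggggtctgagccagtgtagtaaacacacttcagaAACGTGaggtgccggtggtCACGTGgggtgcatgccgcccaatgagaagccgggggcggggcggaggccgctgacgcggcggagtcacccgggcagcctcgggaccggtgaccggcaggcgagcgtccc

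The Per3 window held the D-box letters at 2 places, starting 205 and 158 bases before the start site (positions -205 and -158). Per1 had the E-box at -166 and a D-box at -24 in the window shown, and none of the motifs in the other of its 2 windows. In Cry1 the E-box lay at -60 and CACGTT at -79, and in Cry2 CACGTT lay at -166. Another CACGTT match lay at -28 of Nr1d1, and the ROR element core was found at position 31 of 1 of the 2 Arntl windows. Windows of Clock, Dbp and Nr1d2 held none of the 6 motifs. The YY1 core and the cAMP element were in 0 of the 13 member windows. Of 32817 windows of all genes, 7.15% held the E-box, 4.69% CACGTT, 3.38% the D-box, 2.61% the ROR element core, 1.79% the cAMP element and 6.04% the YY1 core. These matches describe letters near annotated starts and are not measured binding sites.

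Levels are linear intensities as deposited, and tests were run with limma on log2(intensity + 16) over all probe sets. Log2 differences are knockout minus control with the standard error (SE) of that fit, n = 2 arrays per group, and a probe set was called at a Benjamini-Hochberg adjusted p under 0.05. An exact permutation test of 2 arrays against 2 cannot give a p below 0.333. Array medians lay between 139 and 143, and the median of 27 control probe sets for Bacillus genes, a measure of background, between 31.9 and 35.6. Yy1 itself was at 69.4 and 68.1 in knockout arrays, against 1648 and 1681 in control arrays, with its brightest probe set.

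Of the 23 member probe sets 8 fell, in 4 genes (Per2, Per3, Cry2 and Dbp), where 9.09% of all probe sets fell. 1 rose, in Clock, where 10.9% of all probe sets rose. The 9 calls in either direction compare with 20.0% of all probe sets called, and 14 member probe sets were not called. The median log2 difference over the 23 was -0.34, against 0.01 over all probe sets. Both knockout arrays lay below both control arrays in 16 of the 23 probe sets, against 28.4% of all, and above them in 3, against 31.5% of all. Taken by the brightest probe set of each gene, 3 of 10 fell (Per2, Cry2 and Dbp), against 10.4% of all genes, and 1 rose, against 12.6%. The calls were unsteady: with any array left out fewer probe sets were called, among the members and also over all probe sets. Such a fit holds 1 array in a group, so a call can be lost through the smaller number of arrays alone. The log2 difference of Per2 1457350_at then stayed between -0.55 and -0.51, and that of Per2 1417602_at ranged from -1.22 to -0.36. Without knockout replicate 1 the member falls called were those of Dbp, Cry2 and Per2. Without control replicate 1 they were those of Dbp and Cry2 alone. The rise in Clock was not called without either control array.

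**Figure D1:**
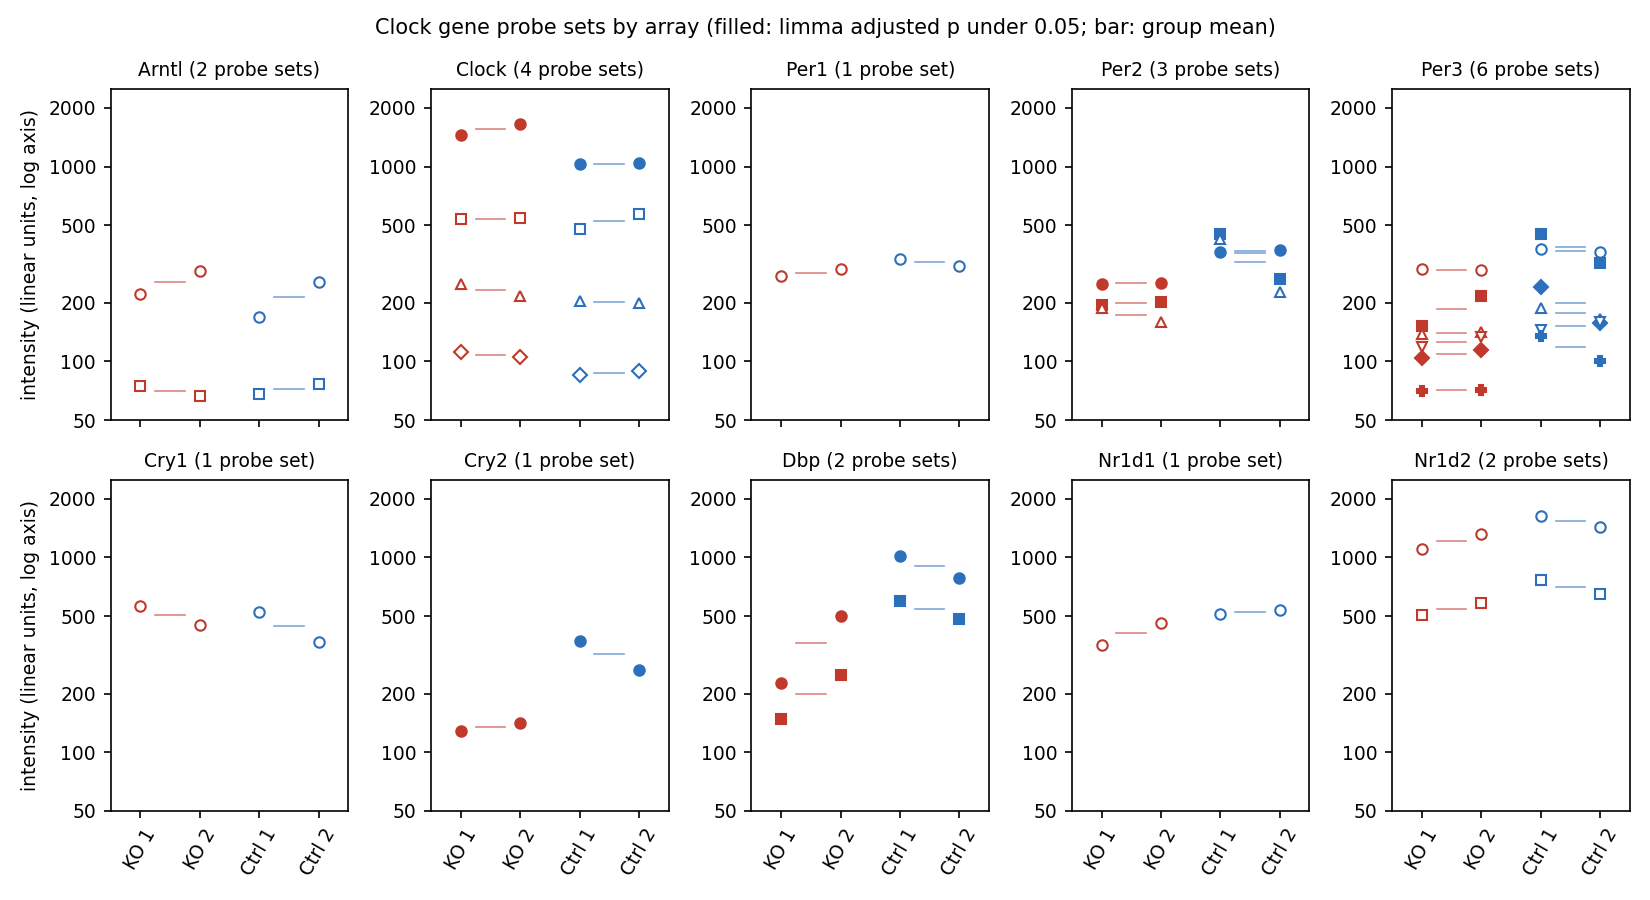
Intensity (linear units on a log axis) of all 23 clock gene probe sets in the 2 knockout (red) and 2 control (blue) arrays, with 1 panel per gene, 1 marker shape per probe set, filled markers for called probe sets and a bar at each group mean. The 2 Dbp probe sets, the Cry2 probe set, the 3 Per2 and the 6 Per3 probe sets sit lower in both knockout arrays than in both control arrays, and Arntl and Cry1 overlap between the groups.

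Of the activators, 1 probe set of Clock rose and none of Arntl was called. Arntl, the gene of BMAL1, had 221 and 292 in knockout arrays, against 170 and 256 in control arrays, with its brighter probe set (log2 0.27 ± 0.20, limma adjusted p = 0.420). The second Arntl probe set had 74.6 and 66.6 in knockout arrays, against 68.2 and 76.9 in control arrays (-0.03 ± 0.11). The groups overlapped in both. For Clock, whose protein is the partner of BMAL1 and has histone acetyltransferase activity, the brightest of 4 probe sets rose to 1455 and 1649 in knockout arrays, against 1032 and 1041 in control arrays (0.57 ± 0.11, limma adjusted p = 0.0105). The next Clock probe set gave 538 and 543 in knockout arrays, against 475 and 574 in control arrays (0.05 ± 0.12), and there the groups overlapped. With the other two Clock probe sets both knockout arrays lay above both controls, by 0.20 ± 0.11 and 0.27 ± 0.10, and neither was called (limma adjusted p = 0.265 and 0.109). The rise of Clock thus rests on 1 of its 4 probe sets, and without control replicate 1 or control replicate 2 that probe set had limma adjusted p = 0.0625 and 0.0600, against a lowest of 0.00240 over its alternatives.

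Among the Per genes, the repressors that carry the time-of-day signal, Per1 was measured with a single probe set. It had 273 and 298 in knockout arrays, against 335 and 310 in control arrays (log2 -0.16 ± 0.11, limma adjusted p = 0.339). The groups did not overlap, but lay close together.

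Per2 had both knockout arrays below both controls with all 3 probe sets, of which 2 were called. Probe set 1457350_at had 249.9 and 252 in knockout arrays, against 365 and 375 in control arrays, a log2 difference of -0.53 ± 0.10 (limma adjusted p = 0.00972). Replicates of each group were nearly level there. Probe set 1417603_at had 194 and 203 in knockout arrays, against 452 and 266 in control arrays (-0.76 ± 0.21, limma adjusted p = 0.0451). For 1417602_at the values were 187 and 159.9 in knockout arrays, against 424 and 227 in control arrays (-0.79 ± 0.25, limma adjusted p = 0.0655). In these 2 probe sets control replicate 1 stood far above control replicate 2, and without it the log2 difference of 1417603_at was -0.40 (limma adjusted p = 0.127, between 0.00986 and 0.149 over its alternatives). The call on 1417603_at was also lost without knockout replicate 1 or 2 (limma adjusted p = 0.149 and 0.0989) and with a pseudocount of 1 or 64 (0.0765 and 0.0733). The call on 1457350_at was lost without control replicate 1 or control replicate 2, at limma adjusted p = 0.0531 and 0.0656, the highest of its alternatives, the lowest being 0.00736.

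Per3, a paralog with a smaller part in the core loop, had 6 probe sets, all with both knockout arrays below both controls, and 3 were called. The largest difference was that of 1421087_at, with 152 and 218 in knockout arrays, against 449.8 and 320.4 in control arrays (log2 -0.997 ± 0.199, limma adjusted p = 0.0133). Probe set 1458176_at had 104 and 115 in knockout arrays, against 241 and 157 in control arrays (-0.75 ± 0.18, limma adjusted p = 0.0260), and the difference was -0.46 without control replicate 1. The dimmest of them, 1441445_at, had 70.6 and 71.6 in knockout arrays, against 135 and 101 in control arrays (-0.61 ± 0.14, limma adjusted p = 0.0201). The remaining 3, among them the brightest, differed by -0.31 ± 0.10, -0.30 ± 0.11 and -0.25 ± 0.11, with limma adjusted p between 0.0618 and 0.159. The calls depend on single arrays. For 1421087_at limma adjusted p was 0.0595 without knockout replicate 1 and 0.0716 without control replicate 1, between 0.00817 and 0.0716 over its alternatives. For 1458176_at it was 0.110 without knockout replicate 1, 0.0527 without knockout replicate 2 and 0.0938 without control replicate 1, and for 1441445_at 0.0766, 0.0524 and 0.104, with lowest values of 0.0129 and 0.0105.

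**Figure D2:**
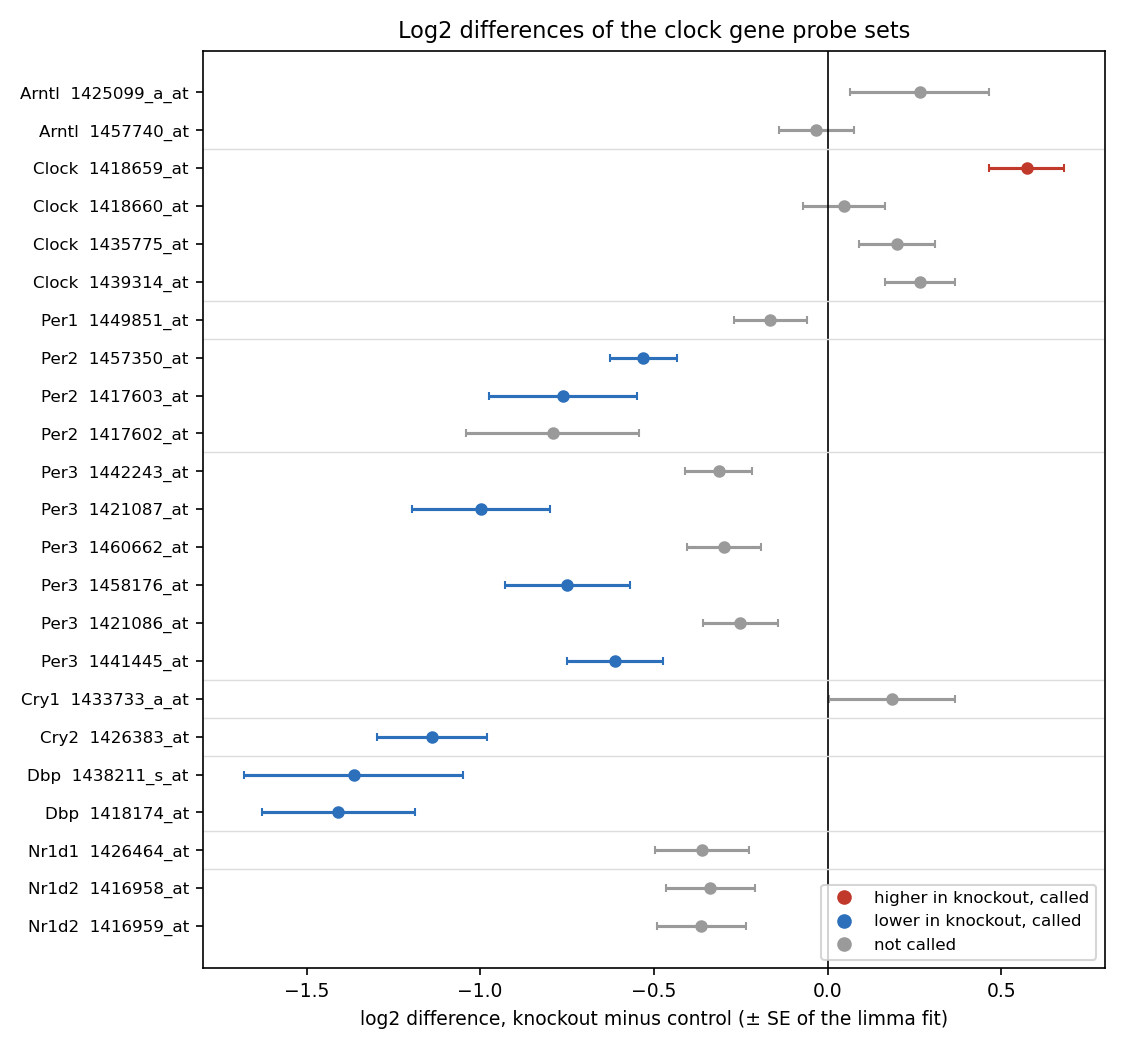
Log2 difference of each clock gene probe set, knockout minus control, with bars for ± 1 SE of the limma fit and colours for the call. Points of Dbp, Cry2, Per2 and Per3 lie left of zero, and the called Clock probe set lies to the right at 0.57 while the other Clock points lie closer to zero.

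The cryptochromes, repressors that bind BMAL1 and CLOCK directly, did not share a call. Cry2 fell to 128 and 141 in knockout arrays, against 373 and 266 in control arrays, a log2 difference of -1.14 ± 0.16 (limma adjusted p = 0.00379). Its mean was 2.37-fold higher in control arrays, and the call was kept in all 12 alternatives, with log2 differences between -1.37 and -0.91. Cry1 had 560 and 449 in knockout arrays, against 527 and 366 in control arrays (0.19 ± 0.18, limma adjusted p = 0.547). In Cry1 the 2 arrays of each group lay farther apart than the means of the groups. A difference between the responses of Cry1 and Cry2 was not tested.

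Dbp, the D-box factor and an output of the loop with one of the widest daily swings in many tissues, showed the largest differences of the members. With 1418174_at it had 148 and 250.4 in knockout arrays, against 600.0 and 485 in control arrays (log2 -1.41 ± 0.22, limma adjusted p = 0.00556). With 1438211_s_at, whose suffix marks probes that can match more than a single transcript, it had 226 and 498 in knockout arrays, against 1015 and 782 in control arrays (-1.36 ± 0.31, limma adjusted p = 0.0224). Both knockout arrays were below both controls, and knockout replicate 1 was the lower of the knockout arrays with each probe set. Without it the second probe set differed by -0.82. The call on 1418174_at was kept in all 11 of its alternatives (limma adjusted p between 0.00130 and 0.0366). That on 1438211_s_at was lost without control replicate 1, without control replicate 2 and with a trended and robust prior, at limma adjusted p = 0.115, 0.0576 and 0.137, between 0.00137 and 0.137 over its alternatives.

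The REV-ERB genes, repressors of Arntl, did not pass. Nr1d1 had 356 and 459 in knockout arrays, against 511 and 537 in control arrays (log2 -0.36 ± 0.13, limma adjusted p = 0.109). It was called without knockout replicate 2 (limma adjusted p = 0.0266, up to 0.408 in other alternatives). Nr1d2 had 1101 and 1321 in knockout arrays, against 1633 and 1430 in control arrays, with the brighter probe set (-0.34 ± 0.13, limma adjusted p = 0.113). The other Nr1d2 probe set gave 506 and 586 in knockout arrays, against 767 and 647 in control arrays (-0.36 ± 0.13, limma adjusted p = 0.0899). The groups did not overlap in any of these, and the 3 differences were alike in size.

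Arrays of the same group differed from each other in several clock genes. Between the 2 control arrays, replicate 1 minus replicate 2, Per2 differed by 0.86 and 0.73 on the log2 scale with 1417602_at and 1417603_at. Per3 differed by 0.57 with 1458176_at, Cry1 by 0.51 and Cry2 by 0.47. The brightest probe sets of Per2 and Per3 were nearly level, at -0.04 and 0.03, and Per3 1421086_at gave -0.12. Arntl differed by -0.55 with its brighter probe set and by -0.14 with the other. In absolute size, 5 of the 23 probe sets (21.7%) differed by more than 0.5 between the control arrays, against 1.49% of all probe sets. The median absolute difference was 0.24 over the members and 0.11 over all probe sets. Between the 2 knockout arrays the widest differences were those of Dbp, -1.09 and -0.70, where 2.76% of all probe sets differed by more than 0.5, and the median absolute difference was 0.15 over the members and 0.12 over all. These are single pairs of arrays with no test.

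**Figure D3:**
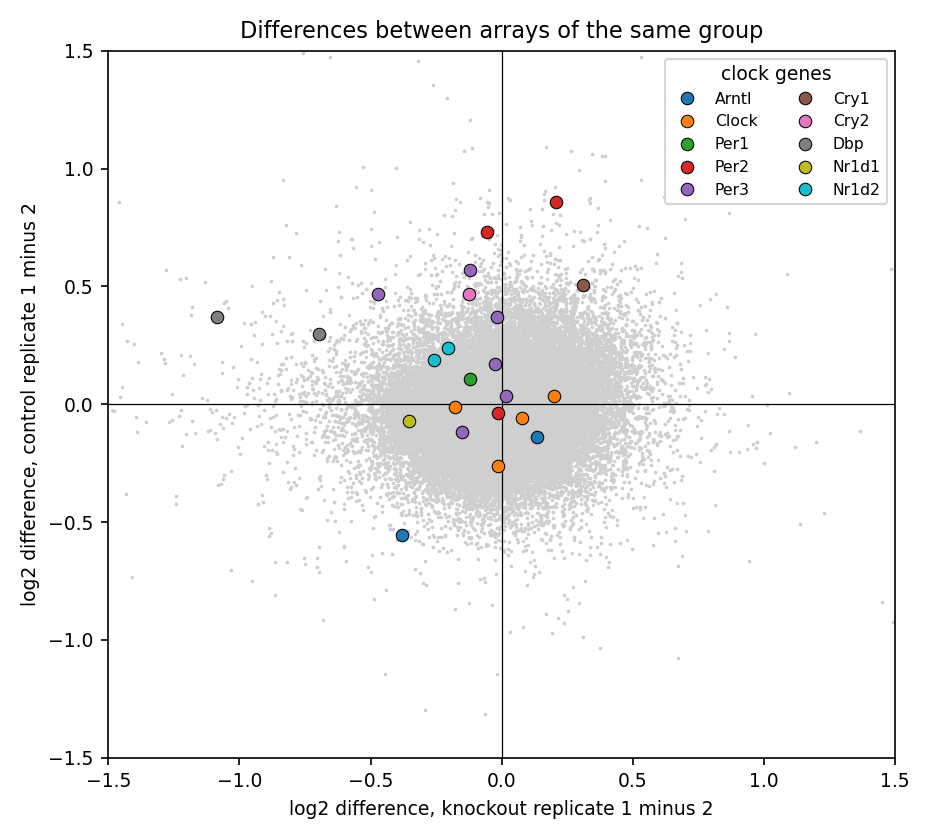
Log2 difference between the 2 knockout arrays (horizontal) and between the 2 control arrays (vertical), replicate 1 minus replicate 2, for all probe sets (grey, 16 lie outside the axes) and the clock gene probe sets (coloured by gene). Cry1, Cry2 and some probe sets of Per2 and Per3 reach high on the vertical axis, where the brightest of Per2 and Per3 lie near zero. The brighter Arntl probe set lies low on it, and Dbp lies far left at -1.09 and -0.70.

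Other genes of the clock were taken from a list of 47, of which 43 were measured with a probe set of their own. By the brightest probe set of each gene, 9 of the 43 fell, 20.9% as a share, against 10.4% of all genes, and 4 rose, 9.30% as a share, against 12.6% of all genes. The median log2 difference was -0.11, against 0.01 over all genes. Without control replicate 1 the falls were 2 and the rises 2, without control replicate 2 they were 4 and 1, and without knockout replicate 1 the falls were 5. With a pseudocount of 1 the falls were 6 and the rises 3, the calls lost being those of Npas2, Csnk2a1, Crebbp and Nono. Of the 13 called genes, Usp2, Prkaa1 and Timeless kept the call in all 12 alternatives, and each of the other 10 lost it with at least 1 array left out.

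By every probe set, 21 of 129 fell (16.3%, against 9.09% of all probe sets) and 12 rose (9.30%, against 10.9%). Genes called by a dimmer probe set alone numbered 9, of which 6 fell and 3 rose. The share of all genes called in this way was not computed. A gene with more probe sets has more chances of such a call, so this count cannot be set against a background.

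Of 4 measured activators and paralogs 1 was called by its brightest probe set, against 23.0% of all genes. The lists by role are short, and several of their counts lie near the shares of all genes. Npas2, which can stand in for CLOCK, fell to 271 and 394 in knockout arrays, against 540.2 and 524 in control arrays (log2 -0.68 ± 0.17, limma adjusted p = 0.0278). Its other probe set gave -0.03 ± 0.11. Npas2 missed the threshold without knockout replicate 1 (log2 -0.42, limma adjusted p = 0.0772) and without control replicate 1 or 2 (0.119 and 0.103), and with a pseudocount of 1 (0.0547), the lowest of its alternatives being 0.00409. Neither PAR bZIP factor, relatives of Dbp that bind the same D-box, was called by its brightest probe set. Tef had 553 and 658 in knockout arrays, against 939 and 746 in control arrays (-0.46 ± 0.14, limma adjusted p = 0.0620), and another of its 3 probe sets was called (-0.66 ± 0.13). Hlf had 133 and 156 in knockout arrays, against 183 and 199 in control arrays (-0.37 ± 0.12, limma adjusted p = 0.0621), and its dimmer probe set was called (-0.61 ± 0.13). The called probe set of Tef reached limma adjusted p = 0.0685 and that of Hlf 0.101 with 1 array left out, namely knockout replicate 1 or control replicate 1 for Tef and each array except knockout replicate 2 for Hlf, the lowest values being 0.00531 and 0.00837. The brightest probe sets were called in some alternatives, with limma adjusted p down to 0.0380 for Tef and 0.0404 for Hlf.

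Of 5 repressors and related genes 1 fell and 1 rose, where 10.4% of all genes fell and 12.6% rose. Bhlhe40, which competes for E-boxes, fell to 1107 and 1190.3 in knockout arrays, against 1714 and 1659 in control arrays (log2 -0.55 ± 0.10, limma adjusted p = 0.00993), but missed the threshold without control replicate 1 or 2 (limma adjusted p = 0.0659 and 0.0534, with a lowest of 0.00196 over its alternatives). Timeless rose to 1357 and 1001 in knockout arrays, against 436 and 439 in control arrays (1.38 ± 0.15, limma adjusted p = 0.00179). In mammals Timeless is known mainly as a part of the replication fork, and its name comes from the clock of the fly. Markers of dividing cells moved with it: 5 of 7 rose, against 12.6% of all genes. Their summed level was 18490 to 18793 in knockout arrays, against 13134 to 13298 in control arrays. The part of dividing cells in the level of Timeless was not tested.

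Usp2 showed the largest difference of the wider list. This ubiquitin protease, itself driven by the clock, fell to 242 and 313 in knockout arrays, against 1467 and 1248 in control arrays (log2 -2.23 ± 0.15, limma adjusted p = 0.000405), and between 2.24e-05 and 0.00422 over its 12 alternatives. Btrc, the ligase subunit that marks PER proteins for decay, fell by 0.64 ± 0.13, to 154 and 130.3 in knockout arrays, against 249.2 and 211 in control arrays (limma adjusted p = 0.0128, 0.0835 without control replicate 1 and 0.00580 at the lowest). The dimmer Btrc probe sets were not called, with log2 differences between -0.34 ± 0.14 and 0.16 ± 0.10. Usp2 and Btrc were the 2 of 6 measured ubiquitin genes that were called by their brightest probe set, against 23.0% of all genes. Of 9 kinases and phosphatases 2 fell, against 10.4% of all genes. They were Prkaa1, a catalytic subunit of AMP kinase that can target cryptochromes (-0.77 ± 0.10), and Csnk2a1, a catalytic subunit of casein kinase 2 (-0.37 ± 0.10). The groups did not overlap in either. The dimmer Csnk2a1 probe sets were all lower in both knockout arrays than in both controls, and those called gave -0.71 ± 0.10 and -0.46 ± 0.11. The alternatives that follow are those of the brightest probe sets. Prkaa1 kept its call in all 12 alternatives, and Csnk2a1 lost it whichever of the 4 arrays was left out (limma adjusted p = 0.0370, between 0.0124 and 0.191). The casein kinase 1 genes were not called, with 0.10 ± 0.10 for Csnk1d and 0.47 ± 0.19 for Csnk1e, which was called without knockout replicate 2 (0.79, limma adjusted p = 0.00683, up to 0.512 in other alternatives).

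Of 9 chromatin cofactors 3 rose and 1 fell, where 12.6% of all genes rose and 10.4% fell. Wdr5, part of histone methyltransferase complexes, rose by 0.65 ± 0.11, the demethylase gene Kdm5a by 0.48 ± 0.11 and Nono, an RNA and PER binding protein, by 0.42 ± 0.11, while the acetyltransferase gene Crebbp fell by 0.38 ± 0.10. The 4 limma adjusted p-values lay between 0.00738 and 0.0371. Each of the 4 genes was also called in the same direction by dimmer probe sets. Their log2 differences were 0.60 ± 0.13 for Wdr5, 0.46 ± 0.13 and 0.41 ± 0.10 for Kdm5a, and 0.35 ± 0.10 for Nono. For Crebbp they were -0.43 ± 0.11 and -0.58 ± 0.11. Further probe sets of Kdm5a, Nono and Crebbp were not called. The alternatives below are those of the brightest probe sets. Wdr5 lost its call without control replicate 2 (limma adjusted p = 0.0560, at the lowest 0.00207), Kdm5a on leaving out each array except knockout replicate 2 (up to 0.133, at the lowest 0.0112), Nono on leaving out each array except knockout replicate 1 (up to 0.170, at the lowest 0.00402) and Crebbp whichever array was left out (up to 0.156, at the lowest 0.00574). Of 8 other clock-controlled genes 2 fell, against 10.4% of all genes. Tsc22d3, a glucocorticoid-induced gene, had 321 and 484 in knockout arrays, against 943 and 656 in control arrays (-0.97 ± 0.22). A dimmer Tsc22d3 probe set was also called (-0.78 ± 0.15), and its others were not. Noct, a phosphatase with a daily rhythm, had 881 and 1145 in knockout arrays, against 1537 and 1493 in control arrays (-0.58 ± 0.14). Tsc22d3 missed the threshold without knockout replicate 1 or control replicate 1 (limma adjusted p = 0.0927 and 0.115, with 0.0221 over all arrays), and Noct on leaving out each array except knockout replicate 2 (up to 0.112, with 0.0239 over all arrays).

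For calls by a dimmer probe set alone there is no share of all genes to compare. Beside Tef and Hlf, 7 genes of the wider list were called by a dimmer probe set while the brightest was not. In 3 of them that probe set rose. Huwe1, a ubiquitin ligase gene, had 341 and 323 in knockout arrays, against 203 and 211 in control arrays (log2 0.64 ± 0.10, limma adjusted p = 0.00537), and kept the call in all 11 of its alternatives. Fbxw7, the gene of an F-box subunit of a ubiquitin ligase, rose by 0.40 ± 0.10 and Arntl2, a paralog of Arntl, by 0.61 ± 0.14. The brightest probe sets gave 0.26 ± 0.10 for Huwe1, 0.34 ± 0.11 for Fbxw7 and 0.12 ± 0.13 for Arntl2. In the other 4 the dimmer probe set was lower, by -0.40 ± 0.10 for Rora, an activator of Arntl, -0.36 ± 0.10 for Prkaa2, the second catalytic subunit of AMP kinase, -0.49 ± 0.12 for Nampt, an enzyme of NAD synthesis, and -0.55 ± 0.14 for Fmo2, a monooxygenase. For Rora the brightest probe set lay the other way, at 0.10 ± 0.11. Those of Prkaa2, Nampt and Fmo2 gave -0.38 ± 0.13, -0.11 ± 0.11 and -0.08 ± 0.11. No further probe set of the 7 genes was called, and the uncalled ones of Rora lay between -0.08 ± 0.22 and 0.17 ± 0.10. The called probe sets of Rora and Fmo2 were dim, with means of 62.5 and 55.0 in knockout arrays, against 87.7 and 86.8 in control arrays. The calls on Fbxw7, Rora and Prkaa2 were lost whichever array was left out (limma adjusted p up to 0.144, 0.156 and 0.191), that on Fmo2 on leaving out each array except knockout replicate 2 (up to 0.152) and that on Nampt on leaving out each except control replicate 2 (up to 0.169). Arntl2 lost its call without knockout replicate 1 or control replicate 1 (0.0879 and 0.110). The difference of Fmo2 was -0.36 without knockout replicate 1. With a pseudocount of 1 the calls on Fbxw7, Prkaa2, Nampt and Fmo2 were also lost (limma adjusted p between 0.0503 and 0.0674). Of the wider list, these 7 genes and Npas2, Csnk2a1, Crebbp, Tsc22d3, Noct, Csnk1d, Csnk1e, Tef and Hlf were named after their values were seen.

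**Figure D4:**
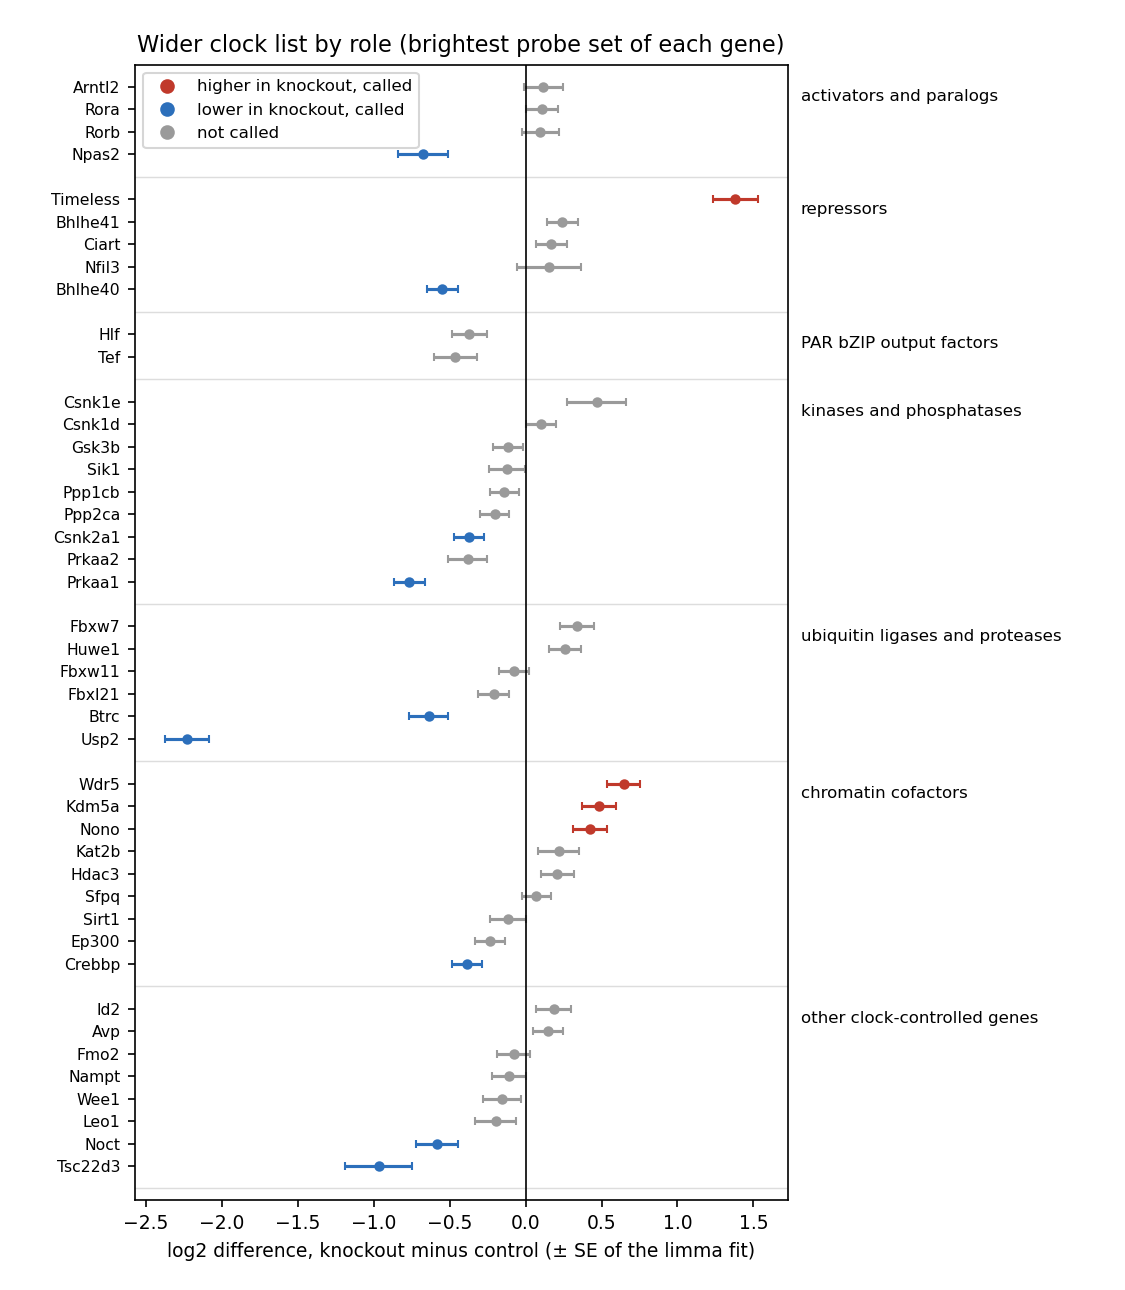
Log2 difference, knockout minus control, with bars for ± 1 SE, of the brightest probe set of 43 further clock genes, grouped by role and coloured by the call. Usp2 lies farthest left at -2.23 and Timeless farthest right at 1.38, with most other genes between -1 and 1.

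Some cell type markers and a sign of RNA quality moved between the groups as well. By the brightest probe set 10.4% of all genes fell and 12.6% rose. The counts of immune, mesenchymal, Paneth and enteroendocrine markers below are near these shares for lists so short. Of 16 enterocyte markers 11 fell and 0 rose by limma (adjusted p under 0.05), and their summed level was 54243 in knockout replicate 1 and 79805 in knockout replicate 2, against 110582 and 109592 in control arrays. The knockout array with the lower enterocyte sum was also the one with the lower Dbp, a match of 2 arrays that was not tested. The crypt, goblet, Paneth, tuft, enteroendocrine and immune sums were lower in that array too. Those of dividing cells, mesenchyme and muscle, endothelium and erythrocytes were higher in it. Between the control arrays, with enterocyte sums nearly level, Dbp differed by 0.37 and 0.30 on the log2 scale (replicate 1 minus replicate 2). Of 11 crypt epithelium markers, Olfm4 and Cdx2 fell. Vil1 was lower in both knockout arrays (log2 -0.53 ± 0.15) and narrowly missed the call (limma adjusted p = 0.0511). Epcam, Krt8, Krt18, Krt19 and Cdh1 were bright and not called, and Lgr5, Ascl2 and Sox9 were not called either. The summed levels of the 11 were 45976 to 49853 in knockout arrays, against 54035 to 54484 in control arrays. Of 5 tuft cell markers 4 fell, with sums of 725 to 796 in knockout arrays, against 1131 to 1268 in control arrays. Of 7 goblet cell markers 2 fell, with sums of 34950 to 41082 in knockout arrays, against 43952 to 45688 in control arrays. Of 12 immune markers 2 fell, with sums of 10542 to 11540 in knockout arrays, against 11286 to 11535 in control arrays. Most of that sum was Lyz2, at 7285 and 7977 in knockout arrays, against 7550 and 7845 in control arrays. The markers that fell were Cd3g (-0.69 ± 0.11) and Ptprc (-0.42 ± 0.12). Of 9 mesenchymal and muscle markers 1 fell, with sums of 1311 to 1492 in knockout arrays, against 1521 to 1729 in control arrays. Of 5 Paneth cell markers 1 rose, with sums of 37662 to 39176 in knockout arrays, against 37358 to 39267 in control arrays. Of 6 enteroendocrine markers 1 rose and 1 fell, with sums of 8366 to 8666 in knockout arrays, against 8454 to 8634 in control arrays. None of 5 endothelial markers was called by limma (sums of 479.7 to 541 in knockout arrays, against 467 to 479.9 in control arrays), nor either of 2 erythrocyte markers (255 to 258 in knockout arrays, against 251 to 273 in control arrays). Gapdh control probe sets at the 3′ and the 5′ end of the transcript, a sign of RNA quality, differed on the log2 scale by 1.710 and 1.648 in knockout arrays, against 1.441 and 1.396 in control arrays. The part of any of these in the clock gene differences was not tested, and in bulk samples fewer cells of a type and less RNA per cell cannot be told apart.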

How the data were processed

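Total RNA of jejunal crypt epithelium was biotin-labelled and hybridised to Affymetrix arrays, per the labels' protocols. The authors deposited a linear intensity for each probe set and array, with a lowest value of 1. How background and normalization were handled is not given in the sources used here. Sample titles gave the groups and the replicate numbers. Of 45101 probe sets 64 were array controls, and 34945 carried 1 gene, 932 several and 9160 none in GEO's platform annotation, with symbols updated by Entrez ID from RefSeq.

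Tests used R 4.3.3 and limma 3.58.1 (functions lmFit and eBayes, all 45037 probe sets, Benjamini-Hochberg adjustment) on log2(intensity + 16). Fold changes on this scale understate those of dim genes. The fit was tested on simulated data. The 10 members, the wider list, the markers and the rule for named genes (all members, and up to 4 called genes of the wider list in each direction by smallest p, to which 16 more were added after their values were seen) were chosen with earlier results of these data known. Nothing beyond the word biological says that replicates came from separate mice, so p-values measure only the spread between these samples, which may be technical. The number of arrays limits the precision. Samples with the same replicate number shared only that number. Alternatives changed the pseudocount, scaling, filter, prior, unit, block and arrays. Sequences came from RefSeq, build GRCm38.p6, and the choice of the 4 printed windows was made after the search.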

Additional observations from a re-analysis of the deposited data

How the results depend on the processing

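Over the 12 alternatives, 228 of 259 values of the 23 clock gene probe sets kept their direction and their side of the threshold, 20 kept the direction and lost the call, 6 gained it, and 5 changed sign, all of them in probe sets that were never called. The sign changes came from leaving out 1 array: Arntl 1457740_at gave 0.035 without knockout replicate 2 and 0.039 without control replicate 2 (lowest -0.10), Arntl 1425099_a_at -0.011 and Clock 1418660_at -0.084 without control replicate 1 (highest 0.54 and 0.18), and Cry1 -0.067 without control replicate 2 (highest 0.44). For the 27 probe sets named in the wider list 243 of 310 values kept direction and call, 61 lost the call, 5 gained it, and the dimmer Npas2 probe set, not called, changed sign without control replicate 2 (0.072, lowest -0.14). With 1 array left out, the lone array of a group is assumed to vary like the other group. Falling clock gene probe sets then numbered 2 to 7 (main 8) and rising ones 0 to 1 (main 1), falling genes of the wider list 2 to 8 (main 9) and rising ones 1 to 4 (main 4), and over all probe sets 1949 to 3908 fell (main 4092) and 2056 to 4629 rose (main 4921). With 1 probe set per gene, 3 of 10 members fell, and 1992 genes fell and 2442 rose, since fewer features were tested. Other settings left 7 to 9 falling clock gene probe sets, and a pseudocount of 1 left 6 falling and 3 rising genes of the wider list.

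The replicate block gave 9 falling and 1 rising clock gene probe sets, and 4536 falling and 5425 rising over all. With it Per2 1417602_at and Hlf 1434735_at were called (limma adjusted p = 0.0152 and 0.0404). Same-numbered arrays deviated together at r = 0.111 across the brighter probe sets and 0.0957 across all, with only 2 pairs. Probe sets near background limit what can be seen: 4 of the 23 members had a mean under the median of all probe sets.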
